A study of Mus musculus with 12 samples.

Results

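Histone genes were followed here as a family of 83 protein-coding genes among the 47643 genes of the table, picked by gene name: 68 clustered genes (symbols that begin Hist1h to Hist4h) and 15 variant genes (symbols that begin H2af, H3f3 or H1f). Expression was measured by bulk RNA sequencing of poly(A) RNA from pancreatic tumor pieces, with 6 Old tumor and 6 Young tumor libraries. The tumors came from KPC4662, a line of mouse pancreatic ductal adenocarcinoma cells. Both groups share the cell line and the tissue, and the label that sets them apart is the age group of the host. The labels used here give no age, strain, sex or implantation route, and they do not tie pieces to single mice. The p-values therefore set a group difference against the spread of these pieces only. Each piece is taken as independent, which pieces of the same mouse would not be.

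Histones are the proteins that DNA wraps around. Clustered genes supply the bulk of H1, H2A, H2B, H3 and H4 while DNA is copied, and their mRNAs usually end at a stem-loop near the stop codon with no poly(A) tail. Variant genes lie outside the clusters, mostly make ordinary polyadenylated mRNAs through the whole cell cycle, and encode forms with special roles, such as H2A.Z at promoters, H3.3 at active genes and H2AX at DNA breaks. Selection of poly(A) RNA is known to under-represent mRNAs without a tail, an effect that these libraries cannot measure because all were selected. Near-identical copies within the clusters can share reads.

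The clustered genes sat on chromosome 13 (53 genes), chromosome 3 (10), chromosome 11 (2) and chromosome 6 (1) of GRCm38, the assembly of mm10, and 2 had no match in the GENCODE annotation used for positions. Of 50 clustered genes with an annotated 3′ UTR (the stretch after the stop codon) of over 20 bases, 44 held the histone stem-loop consensus there, searched on the transcript strand. Among 13 variant genes with such a 3′ UTR, 1 held it, namely H2afx. The consensus was matched in 17 of 21821 other protein-coding genes (0.0779%). The poly(A) signal AATAAA or ATTAAA, searched on the same strand, was in the last 50 bases of a transcript in 17 clustered and 11 variant genes, and in 17030 (78.0%) of the other protein-coding genes. The stem-loops below belong to members described in the results, printed 5′ to 3′ from the GENCODE transcripts as DNA letters, with the 16-base stem-loop in capitals and up to 5 bases on each side in lower case.
Hist1h2ap (chromosome 13): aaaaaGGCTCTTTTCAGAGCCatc
Hist1h2ao (chromosome 13): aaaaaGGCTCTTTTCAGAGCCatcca
Hist2h2aa2 (chromosome 3): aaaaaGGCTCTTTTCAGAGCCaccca
Hist1h1c (chromosome 13): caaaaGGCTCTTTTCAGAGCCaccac
Hist3h2a (chromosome 11): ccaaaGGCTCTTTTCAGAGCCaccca
Hist1h4i (chromosome 13): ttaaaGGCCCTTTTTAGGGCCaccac
H2afx (chromosome 9): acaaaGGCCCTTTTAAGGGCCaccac
The annotated transcript of Hist1h2ap stopped 3 bases after the stem-loop and that of Hist1h2ao 31 bases after it. By contrast, the annotated transcripts of Hist1h1c, H2afx and Hist3h2a ran on for 840, 822 and 1643 bases and had a poly(A) signal near their end.

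Library totals were 17.8M to 24.1M counts, and the histone family took 0.173% ± 0.00937 of them in Old tumors and 0.201% ± 0.00981 in Young tumors (SD, n = 6 each). The samples' cell type label is epithelial, and the epithelial keratin Krt8 was abundant. It averaged 1711 ± 351 CPM (counts scaled to the library size with TMM factors) in Old tumors and 1754 ± 455 CPM in Young tumors. Of 9 epithelial markers, 6 had an estimate (log2 fold change, Old over Young) below 0 and 3 above 0, with a median of -0.18. With edgeR 0 of the 9 passed an adjusted p of 0.05. RNA of other cells was present too. The 8 fibroblast markers summed to 1232 to 9576 CPM in Old tumors and 1403 to 3517 CPM in Young tumors, with the highest sum in Old tumor 1, and 7 T cell markers summed to 8.05 to 30.2 CPM in Old tumors and 18.3 to 42.2 CPM in Young tumors. The 4 endothelial markers summed to 58.0 to 243.6 CPM in Old tumors and 56.2 to 92.2 CPM in Young tumors, and 4 neutrophil markers to 20.4 to 65.4 CPM in Old tumors and 23.3 to 139.4 CPM in Young tumors. All 8 fibroblast and 4 endothelial estimates (Old over Young) were above 0, and all 7 T cell and 3 tested neutrophil estimates below 0. Of 6 macrophage estimates 4 were above 0 and 2 below 0. Among 6 acinar markers 2 were tested, both below 0, and among 5 B cell markers 1, above 0. With edgeR 0 of all these genes passed an adjusted p of 0.05. An unadjusted p under 0.05 was found for 5 T cell, 2 fibroblast, 2 endothelial and 1 acinar gene, and for 0 neutrophil, macrophage, B cell or epithelial genes. DESeq2 called 3 T cell and 1 endothelial gene, limma-voom 1 T cell gene. Over all genes DESeq2 called 1387 and edgeR 362, with limma-voom between them. Over all 16013 genes tested, 3381 had an unadjusted p under 0.05, and 7326 estimates were below 0 and 8687 above. In bulk tissue, fewer cells of a type and less RNA per cell cannot be told apart. Old tumor 1 and Old tumor 5 had been seen to stand apart in earlier work on these libraries, so results were also computed without them.

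In these poly(A)-selected libraries, variant genes outweighed clustered genes by far. Selection under-represents mRNAs without a tail, so the shares below describe the libraries and not the balance in the tumors. Per length, the 15 variant genes summed to 2093 ± 55.1 TPM in Old tumors and 2277 ± 56.8 TPM in Young tumors (RSEM's length-scaled abundance, SD, n = 6 each). The 68 clustered genes summed to 258 ± 45.8 TPM in Old tumors and 334 ± 51.2 TPM in Young tumors. Clustered genes therefore held 10.9% ± 1.52 of the family's TPM in Old tumors and 12.8% ± 1.75 in Young tumors, ranges that overlapped. The variant sum ran from 2032 through a median of 2083 to 2171 TPM in Old tumors and from 2215 through 2275 to 2351 TPM in Young tumors, with no overlap. Clustered sums of 212 to 332 TPM in Old tumors overlapped the Young range of 268 to 398 TPM.

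Most clustered genes gave almost no signal. Under 10 counts in every library were found for 44 of 68 clustered and 5 of 15 variant genes, and 3 of each were at 0 throughout. The 8 most abundant clustered genes held 92.9% of all clustered counts, and Hist1h2ap alone 24.6%. Of the germ-cell genes, Hist1h2aa and Hist1h2ba had 0 counts in all 12 libraries and Hist1h1t averaged 0.0206 CPM in Old tumors and 0.0077 CPM in Young tumors. Of the variants, H1fnt, H2afb2 and H2afb3 were at 0, H2afb1 had at most 1 count and H1foo, the oocyte H1, at most 5.

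Most of the clustered signal came from genes with a 3′ UTR annotated in GENCODE. The annotation behind the counts is not stated, and its transcript lengths differed from GENCODE for some genes. Hist1h1d, of 7425 exon bases in GENCODE, averaged 0.266 TPM beside 0.114 CPM. Hist3h2a, of 2146 bases, averaged 6.03 TPM beside 7.88 CPM, although TPM per count falls with length. The classes need not describe the transcripts that were counted. The 26 genes with a long one (over 150 bases) carried 59.7% of clustered counts, the 24 with a short one 39.8%, and the 15 with none (at most 2 bases) 0.483%. At least 1 CPM on average was reached by 6 of the 26, 3 of the 24 and 0 of the 15. The 3 abundant genes with a short 3′ UTR were Hist1h2ap, Hist1h2ao and Hist2h2aa2, all H2A genes. Among the 26 genes with a long one, Hist1h2bc, Hist2h2be, Hist1h2bq and Hist1h2br had no stem-loop match. The short class summed to 36.2 ± 8.48 CPM in Old tumors and 57.3 ± 10.1 CPM in Young tumors. Most of this sum was the near-identical H2A copies Hist1h2ap and Hist1h2ao, so it does not describe the 24 genes as a class. Hist1h2ap averaged 18.4 CPM in Old tumors and 40.4 CPM in Young tumors, and Hist1h2ao 12.2 CPM and 9.36 CPM. The long class summed to 64.8 ± 12.1 CPM in Old tumors and 75.2 ± 8.95 CPM in Young tumors, a difference smaller than the SD of the Old group. RNAs without poly(A) tails were read alongside. Their shares cannot measure the loss of histone mRNAs without a tail, because all libraries were selected. Small nuclear and nucleolar RNAs took 0.00248% of counts in Old tumors and 0.00251% in Young tumors, and ribosomal RNA took 0.153% in each group.

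A filter on low counts left 16013 genes for the test of Old against Young tumors, among them 22 of the 83 histone genes: 12 clustered and 10 variant. By edgeR's quasi-likelihood test with Benjamini-Hochberg adjustment over all 16013 genes, 362 genes (2.26%) passed an adjusted p of 0.05, with 235 (1.47%) lower and 127 (0.793%) higher in Old tumors. Of the histone genes, 5 passed, all lower in Old tumors, namely the variants H2afv, H2afz, H2afx and H2afj and the clustered gene Hist1h2ap. A gene abundant in 1 group only passes such a filter more readily, and the members were chosen with results known, so these counts describe and test nothing. Every Old library lay below every Young library for 3 of the 22 (Hist1h2ap, H2afv and H2afy), beside 315 of all genes tested (1.97%), and above every Young library for 0 of the 22, beside 159 of all genes tested (0.993%).

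The median log2 fold change (Old over Young) was -0.27 over the 10 variant genes, -0.23 over the 12 clustered genes and 0.03 over all genes tested. Of all 16013 genes tested, 7326 had an estimate below 0 and 8687 above 0. All 5 called genes encode H2A-type proteins. Among the 10 tested members of that type 5 passed, and among the 12 of other types 0 passed with edgeR. Of those 12, 3 had an unadjusted p under 0.05, beside 3381 of all 16013 genes tested. DESeq2 called 2 of the 12 and limma-voom 1. Over all genes DESeq2 called 1387 and edgeR 362, with limma-voom between them. The difference between types was not tested.

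**Figure D1:**
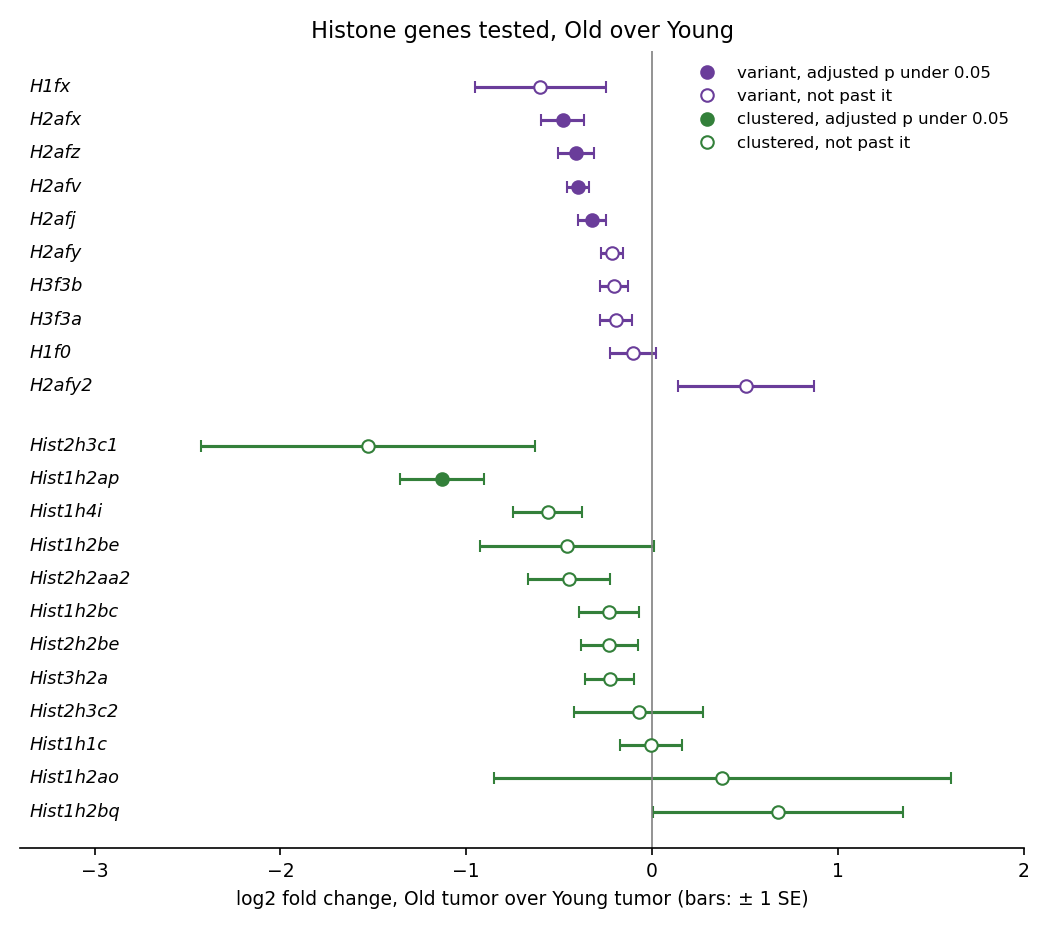
Log2 fold change of Old over Young tumors with ± 1 SE for the 10 variant genes (upper block) and the 12 clustered genes (lower block) that were tested. Filled points passed an adjusted p of 0.05 in edgeR, all 5 of them left of 0. Of the 22 estimates 19 are below 0, beside 7326 of all 16013 genes tested.

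Both H2A.Z genes had a lower mean mRNA level in Old tumors, with a less stable call for H2afz than for H2afv. H2afv (ENSMUSG00000041126, chr11:6427229-6444443, minus strand), which encodes H2A.Z.2, had 55.2 to 64.6 CPM with a median of 61.7 in Old tumors and 74.8 to 83.8 CPM with a median of 80.6 in Young tumors. The groups did not overlap, and the Young libraries lay close together. Its log2 fold change was -0.40 (SE 0.060, adjusted p = 0.021 in edgeR). The call held with 11 of the 12 libraries left out in turn and was lost without Old tumor 3 (adjusted p = 0.053). None of its 75-base stretches is shared with another annotated gene.

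H2afz (ENSMUSG00000037894, chr3:137864487-137866922), which encodes H2A.Z.1, is the more abundant H2A.Z gene. It had 190.9 to 260.3 CPM with a median of 207 in Old tumors and 255.0 to 339.7 CPM with a median of 289.5 in Young tumors. Old tumor 4 alone exceeded the lowest Young library. The log2 fold change was -0.41 (SE 0.095, adjusted p = 0.044 in edgeR). The call was lost on leaving out any 1 library other than Old tumor 1 (adjusted p of 0.051 to 0.113 in edgeR). In TPM the pair of genes summed to 587 ± 51.1 in Old tumors and 717 ± 40.9 in Young tumors. Their coding sequences were 79.07% identical, and H2afz shares 14.7% of its 75-base stretches with other genes, mainly the predicted gene Gm8203.

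H2afx encodes H2AX, the variant that is phosphorylated around DNA breaks. Its gene (ENSMUSG00000049932, chr9:44334694-44336077) had 18.6 to 31.1 CPM with a median of 23.5 in Old tumors and 28.7 to 37.1 CPM with a median of 33.4 in Young tumors. Old tumor 1 was the only Old library inside the Young range. The log2 fold change was -0.48 (SE 0.12, adjusted p = 0.048 in edgeR). Without Old tumor 1 it was -0.59 (adjusted p = 0.012), and without any 1 of the other 11 libraries the call was lost (adjusted p up to 0.104).

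H2afj encodes H2A.J, a variant close to the clustered H2A proteins. The gene (ENSMUSG00000060032, chr6:136808244-136810074) had 45.3 to 53.1 CPM with a median of 47.0 in Old tumors and 52.3 to 67.7 CPM with a median of 58.4 in Young tumors. Old tumor 2 alone exceeded the lowest Young library. Its log2 fold change was -0.32 (SE 0.077, adjusted p = 0.047 in edgeR). The call held without Old tumor 1 or Young tumor 3, and was lost without any 1 of the other 10 libraries (adjusted p up to 0.1001) and without Old tumor 1 and Old tumor 5 together (adjusted p = 0.074).

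The macroH2A genes encode H2A proteins with a large extra domain, found on repressed chromatin. H2afy (chr13:56073619-56136361) had 96.5 to 111.3 CPM with a median of 101.3 in Old tumors and 112.4 to 126.7 CPM with a median of 119.2 in Young tumors, with no overlap. Its log2 fold change was -0.21 (SE 0.060), which did not pass with edgeR (adjusted p = 0.071) and did with DESeq2 (adjusted p = 0.0045). In TPM the H2afy levels overlapped widely, at 111 ± 5.64 in Old tumors and 114 ± 9.27 in Young tumors. H2afy2, the scarcer macroH2A gene, had 1.05 to 5.10 CPM with a median of 1.60 in Old tumors and 1.18 to 1.74 CPM with a median of 1.47 in Young tumors. Old tumor 1 set the upper end, and the log2 fold change of 0.51 (SE 0.37, adjusted p = 0.449 in edgeR) became -0.0017 without it.

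**Figure D2:**
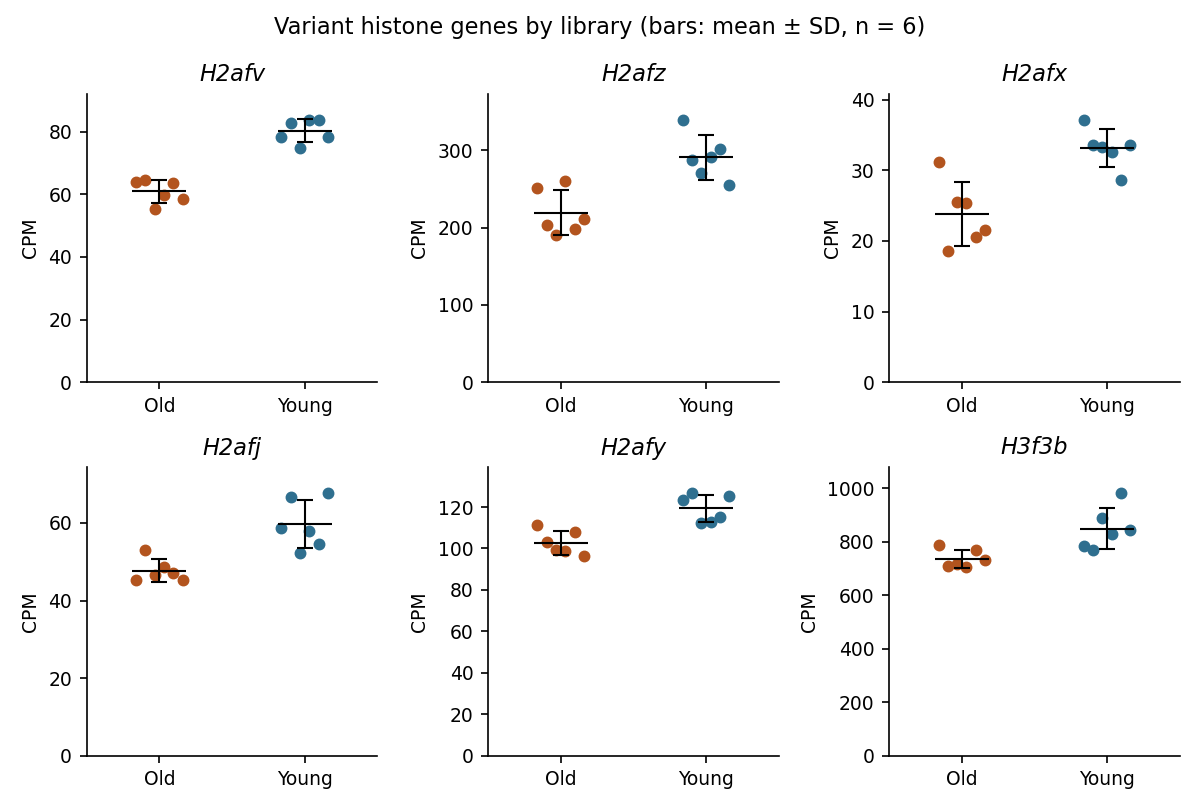
CPM (TMM-scaled) of 6 variant histone genes in the 6 Old and 6 Young tumor libraries, with 1 point per library, the mean and the SD, and axes that start at 0. H2afv and H2afy do not overlap between groups, and in H2afz, H2afx and H2afj 1 Old library reaches the Young range.

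H3.3, the H3 form that is placed outside DNA replication, comes from H3f3a and H3f3b. These were the most abundant histone genes, at 520 and 671 TPM on average over the 12 libraries. H3f3b had 703.8 to 787.2 CPM with a median of 724.0 in Old tumors and 766.9 to 980.7 CPM with a median of 836.6 in Young tumors. Its log2 fold change of -0.21 (SE 0.073) did not pass (adjusted p = 0.133 in edgeR). H3f3a had 251.7 to 308.6 CPM in Old tumors and 271.0 to 367.7 CPM in Young tumors, and its log2 fold change was -0.20 (SE 0.086, adjusted p = 0.215 in edgeR). On the log2(TPM + 1) scale H3f3a had a log2 fold change of 0.0077 and H3f3b of -0.066, where the median over all genes was 0.13. Summed H3.3 was 1176 ± 46.2 TPM in Old tumors and 1206 ± 75.2 TPM in Young tumors, within the spread.

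The linker variants bind DNA between nucleosomes. H1f0, an H1 form linked to cells that have left the cycle, had 125.3 to 168.8 CPM with a median of 137.6 in Old tumors and 117.2 to 204.4 CPM with a median of 146.3 in Young tumors. The Old range lay inside the Young range (log2 fold change -0.10, SE 0.12, adjusted p = 0.676 in edgeR). H1fx, at 0.855 to 4.34 CPM in Old tumors and 1.65 to 4.48 CPM in Young tumors, had a log2 fold change of -0.60 (SE 0.35, adjusted p = 0.349 in edgeR).

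**Figure D3:**
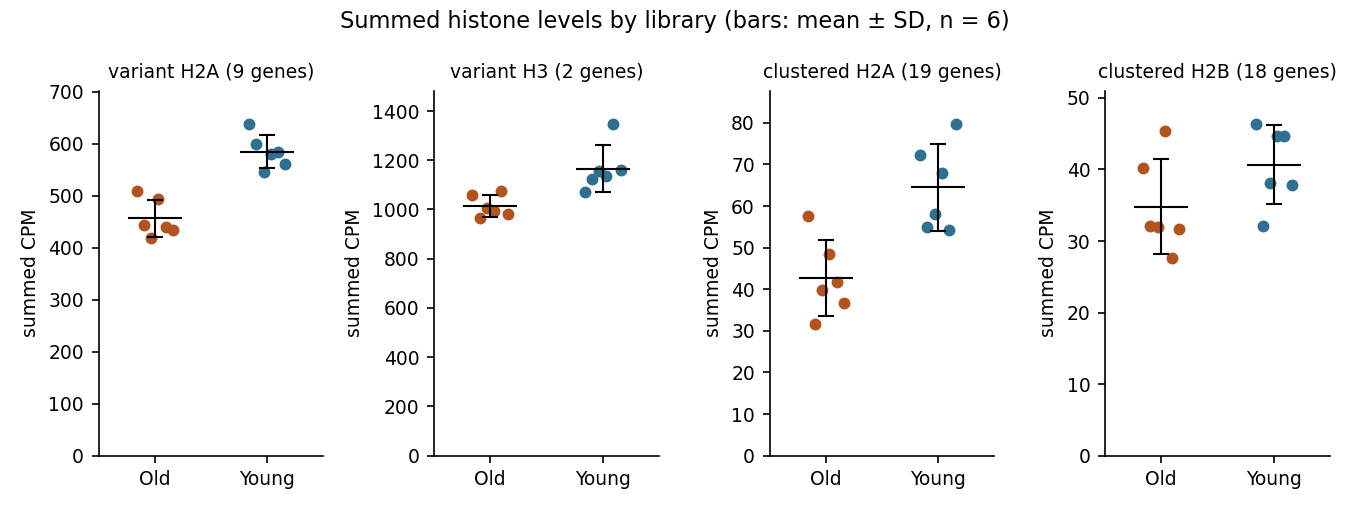
Summed CPM of variant H2A, variant H3, clustered H2A and clustered H2B genes in each Old and Young tumor library, with the mean and the SD, and axes that start at 0. Variant H2A does not overlap between groups, at 456.6 ± 35.9 CPM in Old tumors and 585.0 ± 32.3 CPM in Young tumors.

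The clustered H2A genes were led by Hist1h2ap (ENSMUSG00000094777, chr13:21833026-21833507, minus strand), at 113 TPM on average. It had 8.64 to 25.4 CPM with a median of 18.6 in Old tumors and 26.5 to 58.0 CPM with a median of 39.1 in Young tumors. The groups did not overlap, with Old tumor 4 just below Young tumor 4. Its log2 fold change was -1.13 (SE 0.23, adjusted p = 0.033 in edgeR), the lowest among the called histone genes. The call held without Old tumor 1, Old tumor 4, Young tumor 3 or Young tumor 4 and was lost without any 1 of the other 8 libraries (adjusted p up to 0.075).

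Its value rests on how reads were shared with a copy. Hist1h2ao (chr13:21810465-21810944) has the same 393 coding bases, 100% identical to those of Hist1h2ap, and the annotated transcripts of 482 and 480 bases have an unbroken stretch of 452 bases in common. The copies differ in annotation by where the transcript starts and stops, with 5′ UTRs of 32 and 2 bases and 3′ UTRs of 57 and 85 bases for Hist1h2ap and Hist1h2ao. Of all 75-base stretches of Hist1h2ap, 92.6% are also in Hist1h2ao. RSEM gave Hist1h2ao 0 CPM in Young tumor 1 and Young tumor 5, under 0.01 CPM in Old tumor 2 and Young tumor 3, and 3.50 to 27.3 CPM in the other 8 libraries. Hist1h2ap took 29.1% to 99.998% of the counts of the pair in Old tumors and 51.0% to 100% in Young tumors. Hist1h2ao itself had a log2 fold change of 0.38 (SE 1.23, adjusted p = 0.890 in edgeR). It was 1.90 on the log2(TPM + 1) scale and ran from -0.69, for the sum with its copies, to 2.98 over 26 alternatives.

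Summed, the pair had 19.5 to 41.1 CPM with a median of 30.3 in Old tumors and 39.4 to 62.5 CPM with a median of 48.1 in Young tumors. Old tumor 1 alone reached the Young range. The means were 30.6 ± 7.43 CPM in Old tumors and 49.7 ± 9.23 CPM in Young tumors (SD, n = 6 each). With 9 H2A copies that share most of their sequence added up as 1 feature, a choice made after seeing the data, the log2 fold change was -0.69 (SE 0.16, adjusted p = 0.046 in edgeR), nearer to 0 than the -1.13 of Hist1h2ap alone.

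**Figure D4:**
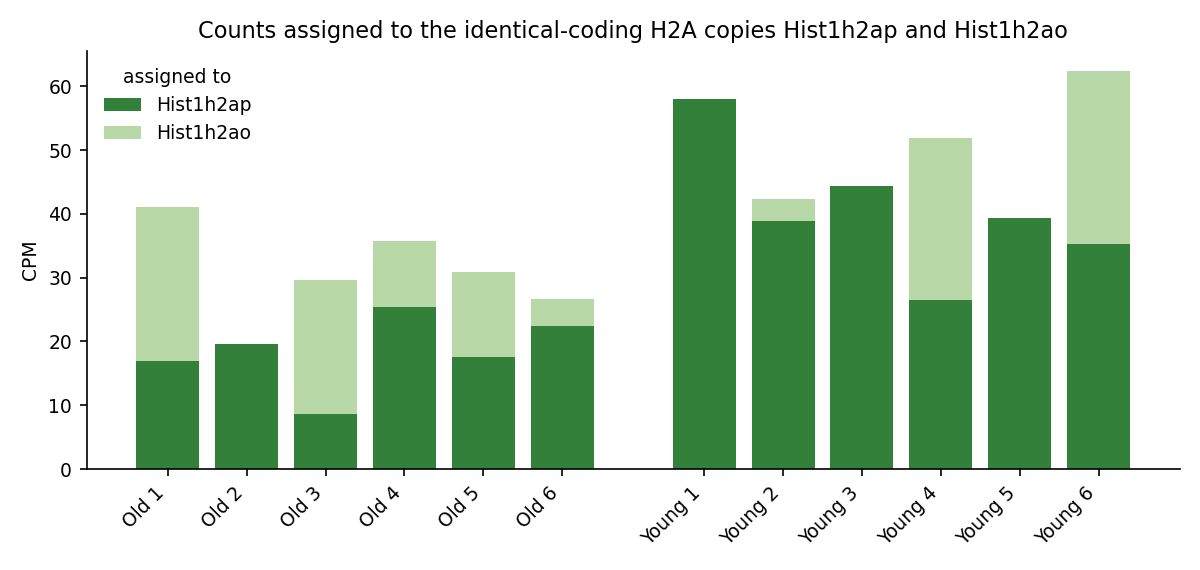
CPM assigned to Hist1h2ap (dark) and Hist1h2ao (light) in each library, stacked, with the 6 Old tumors left of the 6 Young tumors. The split between the copies differs from library to library, and the stacked total runs from 19.5 to 41.1 CPM in Old tumors and from 39.4 to 62.5 CPM in Young tumors.

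Hist2h2aa2 has an exact coding copy as well, in Hist2h2aa1, and all of its 75-base stretches are shared with that copy. It had 2.52 to 5.98 CPM in Old tumors and 3.73 to 6.47 CPM in Young tumors (log2 fold change -0.45, SE 0.22, adjusted p = 0.259 in edgeR). Hist3h2a had 5.67 to 9.16 CPM in Old tumors and 7.32 to 10.1 CPM in Young tumors (log2 fold change -0.23, SE 0.13, adjusted p = 0.341 in edgeR), and 30.6% of its stretches also lie in Trim17. All 19 clustered H2A genes together had 42.7 ± 9.16 CPM in Old tumors and 64.5 ± 10.4 CPM in Young tumors, with 5 of 6 Old libraries below every Young one.

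Clustered H2B came mainly from Hist1h2bc, at 65.6 TPM on average, a gene with a 742-base 3′ UTR and no stem-loop match. It had 19.1 to 34.2 CPM with a median of 23.6 in Old tumors and 21.0 to 35.7 CPM with a median of 30.7 in Young tumors. The ranges overlapped nearly in full (log2 fold change -0.23, SE 0.16, adjusted p = 0.433 in edgeR). Hist2h2be, which shares no stretch with another gene, had 5.64 to 8.79 CPM in Old tumors and 6.39 to 10.9 CPM in Young tumors (log2 fold change -0.23, SE 0.15, adjusted p = 0.413 in edgeR). Hist1h2bq and Hist1h2be had at most 1.37 CPM in any library and did not pass. The 18 clustered H2B genes summed to 34.8 ± 6.63 CPM in Old tumors and 40.6 ± 5.53 CPM in Young tumors, within the spread.

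The linker gene Hist1h1c, which encodes H1.2, differed least. It had 13.7 to 24.3 CPM with a median of 16.4 in Old tumors and 11.5 to 20.9 CPM with a median of 18.3 in Young tumors, a log2 fold change of -0.0054 (SE 0.17, adjusted p = 0.989 in edgeR). Hist1h4i, the main H4 gene here, had 2.28 to 3.23 CPM with a median of 2.82 in Old tumors and 3.04 to 6.09 CPM with a median of 3.75 in Young tumors. Young tumor 3 was the only Young library inside the Old range, and the log2 fold change of -0.56 (SE 0.19) did not pass (adjusted p = 0.108 in edgeR). H3 was scarcest: Hist2h3c2, Hist1h3c and Hist2h3c1 averaged 1.49, 1.295 and 1.27 TPM. Hist2h3c1 had 0 counts in 2 Old tumors and 1 Young tumor, a log2 fold change of -1.53 with a wide error (SE 0.90, adjusted p = 0.349 in edgeR), and every stretch of it also lies in the predicted gene Gm20634. The next genes of each type by TPM were too scarce for the test. Hist1h1e and Hist1h1d averaged 0.443 and 0.266 TPM, Hist3h2ba 0.853 TPM, and Hist1h4h and Hist1h4m 1.46 and 0.742 TPM over the 12 libraries.

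Reads split between copies were common in the clusters. Clustered genes shared a median of 44.0% of their 75-base stretches with other genes, and variant genes a median of 0%. Of the clustered values above 0, 86.4% were fractional, compared with 65.1% of variant values and 28.5% of all values in the table. Sums over a type or a set of copies are less touched by this sharing than single clustered genes.

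Genes that serve histones were read from the same fit. Of 14 genes for transcription and 3′ processing of clustered histone mRNA, 0 passed with edgeR. Of all 16013 genes tested, 3381 had an unadjusted p under 0.05. DESeq2 called 1387 genes in all and edgeR 362, with limma-voom between them. Of the 14 genes, 1 had an unadjusted p under 0.05, and DESeq2 and limma-voom each called 1. That gene, Slbp, whose protein binds the stem-loop, had 52.6 to 68.4 CPM in Old tumors and 68.5 to 83.2 CPM in Young tumors (log2 fold change -0.33, SE 0.086, adjusted p = 0.057 in edgeR). Eri1, an exonuclease that acts on the same structure, had a log2 fold change of -0.17 (SE 0.090, adjusted p = 0.307 in edgeR). The median over these 14 genes was -0.03.

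Among 14 chaperones that deliver new histones during replication, 1 passed and 12 had an estimate below 0, with a median of -0.19. Over all 16013 genes tested, 7326 estimates were below 0, and 362 (2.26%) passed. An unadjusted p under 0.05 was found for 7 of the 14, beside 3381 of all genes tested. DESeq2 called 3 of the 14 and limma-voom 1. Hat1, which acetylates new H4, had 44.8 ± 4.16 CPM in Old tumors and 60.6 ± 8.93 CPM in Young tumors (log2 fold change -0.44, SE 0.10, adjusted p = 0.044 in edgeR). Of 13 chaperones and exchangers of variant histones, 1 passed and was higher in Old tumors. This was Srcap, the motor of a complex that places H2A.Z, at 109 ± 16.9 CPM in Old tumors and 73.2 ± 10.5 CPM in Young tumors (log2 fold change 0.57, SE 0.12, adjusted p = 0.033 in edgeR). In the same list Anp32e, which removes H2A.Z, had a log2 fold change of -0.37 (SE 0.11, adjusted p = 0.081 in edgeR), and Znhit1, a subunit of the Srcap complex, -0.23 (SE 0.067, adjusted p = 0.078 in edgeR). Hjurp, the chaperone of the centromeric H3 form, had 0.25 (SE 0.098, adjusted p = 0.171 in edgeR). Over this list 9 of 13 estimates were above 0, beside 8687 of all 16013 genes tested, with a list median of 0.06. An unadjusted p under 0.05 was found for 4 of the 13, and DESeq2 called 3 and limma-voom 2. With 1 library left out in turn, Srcap (adjusted p up to 0.080) and Hat1 (up to 0.1005) kept their calls in 3 of 12 fits, those without Old tumor 1, Young tumor 3 or Young tumor 6.

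Genes of DNA replication and mitosis were read beside the histones. Of 27 genes of S phase, when clustered histones are made, 2 passed with edgeR, both lower in Old tumors, beside 362 of all genes tested (2.26%). An unadjusted p under 0.05 was found for 15 of the 27, beside 3381 of all 16013 genes tested. DESeq2 called 11 of them and limma-voom 5, where DESeq2 called 1387 genes in all. All 27 estimates were below 0, beside 7326 of all 16013 genes tested, with a list median of -0.28. The sum of the list was 1225 ± 100.4 CPM in Old tumors and 1484 ± 139.0 CPM in Young tumors, without overlap. Rrm2, a subunit of the enzyme that makes deoxynucleotides, had a log2 fold change of -0.71 (SE 0.12, adjusted p = 0.030 in edgeR), and Pcna, the sliding clamp, -0.44 (SE 0.089, adjusted p = 0.033 in edgeR). Of 8 mitosis genes 4 passed with edgeR (Cdk1, Aurka, Ube2c and Birc5), all lower in Old tumors, with a median of -0.58 over the list. An unadjusted p under 0.05 was found for 7 of the 8, and DESeq2 and limma-voom each called 7. With 1 library left out in turn, the edgeR calls held in 10 of 12 fits for Aurka, 9 for Ube2c and 8 for Rrm2. They held in 4 fits for Pcna and Birc5 and 3 for Cdk1 (adjusted p up to 0.079 in edgeR). The part of cell cycle genes in the histone values was not tested. Nor was that of epithelial, fibroblast, endothelial, T cell, neutrophil, macrophage, B cell or acinar RNA.

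Exon length differed between the sets of tested genes, with a median length of 1358 bases for clustered, 1943 for variant and 4022 for all genes. With the length trend of each library removed, H2afv kept its call (log2 fold change -0.35, adjusted p = 0.042 in edgeR) and H2afy passed (-0.31, adjusted p = 0.041). The other folds stayed near their values while the calls were lost: H2afz had -0.37 (adjusted p = 0.079), H2afx -0.42 (0.081), H2afj -0.28 (0.153) and Hist1h2ap -0.98 (0.072). Without Old tumor 1 and Old tumor 5, edgeR called H2afv (-0.42, adjusted p = 0.020), H2afz (-0.42, 0.043), H2afx (-0.54, 0.025), H2afy (-0.25, 0.038) and Hist1h2ap (-1.07, 0.048), and not H2afj.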

How the data were processed

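Per the labels' protocols, poly(A)-selected RNA of pancreatic tumor pieces was made into directional libraries. Per the submitters' processing notes, cutadapt 2.3, STAR 2.7.0d with mm10 and RSEM 1.3.1 processed the reads. Neither annotation nor strand setting is stated in the labels. The authors deposited expected counts, which RSEM estimates by dividing reads among similar genes, and TPM values. The deposited expected counts were rounded and tested with edgeR 4.0.16 (R 4.3.3): TMM scaling, filterByExpr (minimum count 10), quasi-likelihood F test, Benjamini-Hochberg adjustment over 16013 genes, two-sided. Fold changes are Old over Young, and an SE is the fold change divided by the square root of F. DESeq2 1.42.0 and limma 3.58.1 served as alternatives. TPM entered levels, sums and limma fits on log2(TPM + 1) and log2(TPM + 0.1). Positions, lengths, 3′ UTRs and 75-base stretches came from GENCODE annotation and transcripts of GRCm38. Coding sequences were aligned globally in pairs. The edgeR script was tested on simulated data.

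Members and gene lists were chosen with earlier results of these data known, so lists are described by counts and medians without a test. Named in full are members past the threshold, the 3 clustered genes of highest TPM per type and variants of at least 1 CPM on average. Of each list, members past the threshold or else the 2 of smallest p are named. For marker lists only sums and counts are given, with a median for the epithelial list. Krt8, Anp32e, Znhit1 and Hjurp fall outside that rule and were added after their values were seen.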

Additional observations from a re-analysis of the deposited data

Results flagged for a closer look

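For each histone value or sum, 60 groups of 6 libraries were searched for a library far from the other 5, and 3 were found. Chance gives such a gap in about 1 group in 20. H2afy2 was 5.10 CPM in Old tumor 1, where the next Old library had 2.18 CPM. The variant sum was 2141 CPM in Young tumor 5, where the next Young library had 1891 CPM. The clustered H1 sum was 11.7 CPM in Young tumor 2, where the next Young library had 18.6 CPM.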

How the results depend on the processing

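The direction of H2afv, H2afz, H2afx, H2afj and Hist1h2ap stayed lower in Old tumors under all 26 alternatives, and their calls did not: H2afv passed in 24, Hist1h2ap in 16, H2afj in 9, H2afz and H2afx in 8. With 1 library left out, genes called ran from 2 (without Old tumor 3) to 1106 (without Old tumor 1), clustered genes called from 0 to 1 and variant genes called from 0 to 5. Only without Young tumor 3 (471) did the total stay within 1.5 times of 362. Genes called were 1387 with DESeq2, 977 with limma-voom, 151 without a filter, 112 with the length trend removed and 742 without Old tumors 1 and 5. Clustered genes called were 2 with DESeq2 and 0 with the length trend removed. Variant genes called were 6 with DESeq2 or limma-voom, 1 with total-count scaling, no filter or TPM at either pseudocount and 2 with upper-quartile scaling or the length trend removed. Calls split into 235 lower and 127 higher with TMM, 143 and 152 with total-count scaling, and 48 and 291 on log2(TPM + 1). On that scale the median of all genes was 0.13. The variant median was -0.15 at both pseudocounts, or -0.28 relative to all genes at a pseudocount of 1. The log2 ratio of variant sums was -0.24 in CPM and -0.12 in TPM.

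Signs turned for genes that edgeR did not call. Hist1h1c was 0.025 with total-count scaling, 0.12 in TPM at both pseudocounts, 0.047 with the length trend removed and -0.14 to 0.058 with 1 library left out. Hist2h3c2 was 0.051 and 0.098 in TPM, 0.019 with the length trend removed and -0.22 to 0.065 with 1 library left out. H1f0 was 0.053 in TPM at both pseudocounts and -0.17 to 0.0024 with 1 library left out, and H3f3a 0.0077 in TPM at both pseudocounts. H2afy2 was -0.15 without Old tumors 1 and 5 and -0.0017 to 0.64 with 1 library left out. Hist1h2ao was -0.075 without those 2 tumors, and -0.69 when summed with its copies, where the summed feature passed. The causes were not tested.

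The labels do not state whether replicate numbers pair the libraries. Same-numbered deviations correlated at -0.23 to 0.14, which cannot exclude a pairing. With a replicate block 1 gene was called in all, 0 of them clustered and 0 variant histone genes. Counts under 10 in every library, for 49 histone genes, limit what the depth can show.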
